A study of Mus musculus with 6 samples.

Results

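In mouse liver RNA, 754 array probes were flagged as well above background on every prenatal array and on no adult array. They are 4.53% of the 16633 probes of the ASMM10P naming series that appear in the authors' deposited value table. The whole series covers 60915 probes that are not controls, 58141 of them named ASMM10P followed by a number. Members were chosen by the scanner's own flag for a spot well above background, which had to be set on all 3 prenatal arrays and on none of the 3 adult arrays. That flag reads the same signals as the prenatal and adult levels given here, so those levels, their bounds and any call on them are a description and carry no test.

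Total liver RNA of C57BL/6 mice was read on single-colour arrays, labelled with the fluorescent dye Cy3 and with 1 array per sample. The prenatal group is liver at embryonic day 18 (E18.5 in another label, with the tissue field reading embryo), and the adult group is liver at 2 months. The labels name no genotype or treatment beyond the strain and say that the RNA was bought from a company, and the series text counts 3 different animals per group. The study is titled as a profile of long noncoding RNA, and the comparison of the ages asks which of these transcripts change in level between them.

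Long noncoding RNAs are transcripts with little or no coding capacity, many of them tied to one tissue or one stage of development. Before birth the liver is a site of blood formation, and its hepatocytes take on most of their metabolic tasks later. Some liver genes, among them the noncoding H19 and the secreted protein gene Afp, are well known to be shut down after birth. The scanner files pair 0 of the 754 members with an accession or gene other than the probe's own name, and no file here gives their sequences or positions. Each member is therefore named by its probe alone, and nothing is said about which gene it reads.

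Between 45.1% and 60.5% of the 61500 spots that are not controls were well above background on an array. No such spot was saturated, and no member lost its value on an array to an outlier mark. The same flag was set on 8.33% of the spots named as negative on prenatal replicate 1. On the other arrays it was set on 0.333% to 2.33% of them. The part of this difference in the list of members was not tested. Precision is limited by having only 3 arrays per group. Signals are given as log2 after scaling, so that 0 is the 75th percentile of an array, and the signals of different probes do not rank their transcripts. Tfrc, the transferrin receptor that is abundant on red cell precursors, stood at 8.14 ± 0.15 (SD, n = 3) on the prenatal arrays. Its adult value was 4.52 ± 0.23 (SD, n = 3), which was lower (limma adjusted p = 0.000182). Tfrc is the only marker of blood-forming cells with a named probe. The part of such cells in the members' values was not tested, and in bulk RNA fewer cells of a type cannot be told apart from less RNA per cell.

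Most of the members were dim before birth, and a minority was bright. Their mean prenatal signal ran from -2.79 to 6.53, with a median of -1.43 and quartiles of -1.97 and -0.56. On the adult arrays the median member value was -4.20, -3.91 and -3.75 for replicates 1, 2 and 3. Even the brightest member signals there were only -2.68, -2.17 and -2.66, because the rule left out anything brighter.

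Since no member was well above background on an adult array, each change is given as a lower bound. The dimmest probe that was well above background set the detection limit of an array, which was -2.67, -2.17 and -2.66 on adult replicates 1, 2 and 3. No member reached these limits, so the bound is the prenatal mean minus their mean of -2.50. The median member was at least 2.10-fold higher before birth, with quartiles of 1.45 and 3.84. Another background correction, normexp with an offset of 50, lowered the median bound from 1.07 to 0.43 in log2. At least 2-fold was reached by 405 members (53.7%), at least 4-fold by 177 (23.5%), at least 8-fold by 76 (10.1%) and at least 16-fold by 30 (3.98%). For 31 members the prenatal mean lay under the mean adult limit, and no fold can be given.

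The 10 members with the largest bounds were bright before birth and below the detection limit in the adult. ASMM10P002061 had 5.72, 6.71 and 7.17 on prenatal replicates 1, 2 and 3 and -5.00, -4.49 and -4.99 on the adult ones, a change of at least 524-fold. Those adult values are the lowest signal each array reports, which the scanner software gives to every member spot that it does not find significantly above background. ASMM10P018520 had 6.65, 5.27 and 5.60 before birth against -3.36, -4.46 and -4.09, at least 324-fold. With prenatal values of 4.53, 5.14 and 4.99 and adult values of -5.00, -4.49 and -4.11, ASMM10P048671 changed by at least 167-fold. In all 3 of these, which were picked for their large bounds, the gap between the groups was far wider than the range of the prenatal values.

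A further 4 of the 10 had prenatal SDs of 0.46 to 0.67. ASMM10P049933 had 4.62, 3.99 and 3.72 before birth and -5.00, -4.49 and -4.78 in the adult, at least 97.7-fold. ASMM10P015877 had 2.63, 3.63 and 3.45 before birth, at least 53.3-fold above the adult limits. For ASMM10P012499 the prenatal values were 3.79, 2.69 and 2.60, at least 46.1-fold. ASMM10P001244 had 2.14, 3.47 and 2.63, at least 37.9-fold. The last 3 lay at the lowest reported signal on all 3 adult arrays, as did 102 of the 754 members.

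The other 3 of the 10 differed more between prenatal arrays, and for 2 of them prenatal replicate 1 set the size. ASMM10P017779 had 5.59, 2.22 and 2.55 before birth and -4.07, -2.62 and -2.86 in the adult, at least 61.9-fold, or at least 29.5-fold without prenatal replicate 1. ASMM10P052109 went the other way, with 0.15 on replicate 1 and 3.54 and 4.53 on replicates 2 and 3. Its bound was 37.9-fold with that array and 93.0-fold without it. ASMM10P025553 had 4.29, 2.82 and 2.93 before birth and -4.91, -4.49 and -3.12 in the adult, at least 57.5-fold.

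Being under the detection limit is not the same as giving no signal. A weaker flag of the scanner software marks spots that are positive and significant against their background. It was set for 359 members on all 3 adult arrays, for 173 on 2, for 120 on 1 and for 102 on none. Of the 76 members with a bound of at least 8-fold, 28 carried it on all 3 adult arrays and 12 on none. The members' median signal was 1.71, 1.48 and 2.28 times its stated error on adult replicates 1, 2 and 3, and 7.69, 8.82 and 7.33 times on the prenatal ones.

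The detection limits themselves differed between arrays, which matters for the dim members. They were -2.46, -3.57 and -2.70 on prenatal replicates 1, 2 and 3, so the brightest array, prenatal replicate 2, could flag signals that adult replicate 2 could not. All 3 prenatal values exceeded the highest limit of any array, -2.17, in 430 members (57.0%), and at least 1 value did not in 324. In 36 members no prenatal value exceeded it. With that single limit for all arrays, 651 tabled ASMM10P probes met the rule, 430 of them among the 754.

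At the edge of the rule the groups are close. The 3 members with the lowest prenatal mean were ASMM10P030510, ASMM10P041536 and ASMM10P057025, each with a mean of -2.79. ASMM10P041536 had -2.45, -3.26 and -2.65 before birth and -2.94, -3.31 and -2.78 in the adult, so its groups overlapped. One member, ASMM10P016939, singled out after its values were seen, was higher in the adult by 0.016 in log2 as measured, with -1.91, -3.38 and -2.42 before birth and -2.73, -2.18 and -2.74 in the adult.

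Just outside the rule, 598 tabled probes were well above background on all prenatal arrays and on exactly 1 adult array. That array was adult replicate 3 for 386 of them, adult replicate 1 for 173 and adult replicate 2 for 39. The dimmest such adult signals belonged to ASMM10P032921, ASMM10P042043 and ASMM10P021499, each at -2.67 on adult replicate 1. ASMM10P032921 had -1.25, -0.90 and -1.59 before birth, which lies within the range of the members. Without adult replicate 3 the rule would hold for 1140 probes in place of 754. Leaving out any prenatal array kept the 754, because every tabled ASMM10P probe was flagged on 3 arrays or more.

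All 754 members were among the 32336 probes tested across the array, since being detected on 3 arrays is also the filter for testing. A limma fit with Benjamini-Hochberg adjustment called 613 of them (81.3%) higher before birth, where it called 12.0% of all tested probes higher before birth. With normexp it called 184 of the members and 8.50% of all tested probes higher before birth. Every prenatal value exceeded every adult value in 690 members (91.5%), and this held for 20.5% of all tested probes. In the other 64 members the groups overlapped. The rule used this same contrast, so nothing is read from either count. In the authors' table the median of the members was 5.08 before birth and 2.76 in the adult (log2), and 753 of the 754 were higher before birth, all but ASMM10P016939.

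How well the prenatal arrays agreed depended on the array. Over the 754 members, Pearson correlations were 0.919 between prenatal replicates 2 and 3, but 0.554 and 0.544 between replicate 1 and these. For the 11488 tabled ASMM10P probes detected on all 6 arrays, which span a wider range of signal, they were 0.987, 0.914 and 0.930. The 288 tabled ASMM10P probes detected on all adult and no prenatal array correlated between the adult arrays at 0.960 to 0.975. They too reach further up in signal, with a largest bound of 19696-fold toward the adult against 524-fold for the members. Probes are not independent replicates and share their arrays, so these values are descriptions.

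The median SD of a member over the prenatal arrays was 0.54, with quartiles of 0.32 and 0.88. Without prenatal replicate 1 it was 0.25. It was 0.43 for the tabled probes detected on all arrays, and 0.31 over the adult arrays for the probes detected in the adult alone. An SD under 0.3 was found in 174 members and one over 1 in 153. Prenatal replicates 2 and 3 differed by more than 2-fold in 61 members and by more than 4-fold in 2.

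Prenatal replicate 1 stood above the others more often than below them. It held the highest prenatal value in 434 members and the lowest in 205. It exceeded the mean of replicates 2 and 3 by more than 4-fold in 99 members (13.1%) and lay below it by as much in 11 (1.46%). Among tabled probes detected on all arrays these shares were 6.12% and 2.79%. Its detection limit was the highest of the prenatal arrays, at -2.46, and its part in these counts was not tested. In the 430 members above the single limit, replicate 1 was highest in 208 and lowest in 160. In the 76 members with a bound of at least 8-fold it was highest in 40 and lowest in 31, and it stood more than 4-fold above the others in 16 and as far below them in 4.

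The 3 members with the largest SD were all brightest on replicate 1. ASMM10P035266 had 2.26, -2.62 and -2.38 on prenatal replicates 1, 2 and 3, ASMM10P034232 had 2.61, -1.53 and -2.55, and ASMM10P014906 had 3.19, -1.15 and -1.64. The most even members were ASMM10P033988 with -1.16, -1.23 and -1.22, ASMM10P015166 with -1.75, -1.83 and -1.81, and ASMM10P002031 with -1.63, -1.55 and -1.61. These evenly read members had bounds of only 2.46-fold, 1.63-fold and 1.87-fold.

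Arrays that share a scan date give a second view of the same point. Prenatal replicate 1 and adult replicate 3 share a scan date, and the other 4 arrays share a different date. Within the scan of 2 arrays per group the median bound was 0.78 in log2, and within the scan of 1 array per group it was 1.47. At least 8-fold was reached by 66 and 157 members in these scans, and by 47 members in both. Of the 76 members that reached it over all arrays, 60 still did without prenatal replicate 1, and 45 had all 3 prenatal values at least 8-fold above the mean adult limit. The adult limits that enter these bounds were -2.67 and -2.17 in the scan of 2 arrays per group and -2.66 in the other. These limits are part of the difference between the scans. Beyond them, the part of the scan and of the animal cannot be told apart.

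Members were scattered over the probe numbers and only a few stood side by side. Of the 754, 711 had no member at the next number on either side, 17 runs held 2 members and 3 runs held 3, so 43 members (5.70%) stood in runs. Among the 15879 tabled ASMM10P probes that are not members, 477 (3.00%) had a member next to them. The adult-only probes had a member next to them in 8 of 288 cases (2.78%), and 18 of these 288 (6.25%) stood in runs of their own. A share in runs depends on the size of the set, here 288 against 754 of the same 16633 tabled probes. The 6.25% and the 5.70% are therefore not directly comparable. Without adult replicate 3, where the list grows to 1140, 74 probes stood in runs. The difference between these shares was not tested.

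At larger steps in number the share for members was lower than at adjacent numbers, while that for tabled non-members stayed between 2.85% and 3.10%. A member lay 2 numbers away for 5.04% of members and 2.85% of tabled non-members, and 3 numbers away for 5.31% and 3.09%. At 5 numbers these shares were 3.58% and 3.01%, at 10 numbers 3.98% and 3.10%, and at 20 numbers 3.71% and 2.87%. What adjacent numbers mean is not given in the sources used here. On the slide, 47.5% of members lay in the printed rows above the middle, as did 50.1% of tabled ASMM10P probes.

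The run of ASMM10P046353, ASMM10P046354 and ASMM10P046355 had a neighbour detected at both ages whose adult values were all below its prenatal ones. ASMM10P046353 had 0.95, 0.95 and 0.67 before birth against -3.16, -3.95 and -3.00 in the adult, at least 10.2-fold. ASMM10P046354 had -1.96, -0.96 and -1.06, at least 2.26-fold, and ASMM10P046355 had -0.50, -0.08 and -0.08, at least 4.87-fold. The number before the run, ASMM10P046352, was detected on all 6 arrays, with 2.57, 2.30 and 2.18 before birth and -2.09, -1.33 and -1.53 after. On the other side ASMM10P046356 was detected on all arrays at both ages, with -0.79, -0.76 and -0.14 and then -0.35, 0.68 and 0.26. At 2 numbers before the run, ASMM10P046351 lay lower before birth, with -4.78, -2.06 and -1.17 against -0.39, 0.50 and 0.17. At 2 numbers after it, ASMM10P046357 had 9.02, 8.93 and 9.13 against 9.36, 9.62 and 9.18.

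Directly beside the run from ASMM10P051234 no probe carried the members' flags. ASMM10P051234 had -0.72, -0.44 and -0.71 before birth, ASMM10P051235 had -2.32, -2.57 and -1.99, and ASMM10P051236 had -0.85, 1.30 and 0.58. Their bounds were 3.68-fold, 1.15-fold and 7.19-fold. ASMM10P051233 before them was detected on 0 arrays, and ASMM10P051237 after them on 1 prenatal array. At 2 numbers before the run, ASMM10P051232 was detected on all 6 arrays and every prenatal value exceeded every adult one, with 0.51, 1.23 and 1.21 against -2.03, -1.36 and -2.28. At 2 numbers after it, ASMM10P051238 was also detected on all 6 and its groups overlapped, with 3.33, -0.76 and -0.56 against 1.05, 0.74 and 1.17.

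The run from ASMM10P036858 lies beside a probe that went the other way. ASMM10P036858 had -1.96, -2.16 and -1.04 before birth, ASMM10P036859 had -1.92, -1.81 and -1.76, and ASMM10P036860 had -0.35, -1.13 and -0.66, with bounds of 1.72-fold, 1.59-fold and 3.45-fold. ASMM10P036857, the number before, had -4.78, -2.26 and -2.91 before birth and -0.93, -0.86 and -1.54 in the adult. On the other side, ASMM10P036861 had -2.75, -3.03 and -2.76 before birth and -3.47, -1.25 and -2.20 in the adult, and its groups overlapped. ASMM10P036862, 2 numbers beyond the run and not in the table, carried the same flags as the members, with -1.42, -0.86 and -2.17 before birth.

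Among pairs, ASMM10P042981 and ASMM10P042982 had the highest mean signal. ASMM10P042981 had 0.98, 1.49 and 1.47 before birth and the lowest reported signal on all adult arrays, at least 14.1-fold. For ASMM10P042982 the values were -0.04, 0.79 and 0.45 before birth and -4.73, -3.79 and -3.21 in the adult, at least 7.45-fold. The numbers on either side, ASMM10P042980 and ASMM10P042983, were detected on all 6 arrays. At 2 numbers away, ASMM10P042979 had 0.41, -2.63 and -1.43 before birth against -3.75, -1.53 and -1.97, with overlapping groups, and ASMM10P042984 had 5.72, 3.79 and 3.69 against 2.49, 2.52 and 3.24.

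The deviation of replicate 1 was also compared between adjacent members; it comes from values the rule used. In the 23 adjacent pairs, the difference of replicate 1 from the mean of replicates 2 and 3 had the same sign in 15, above in 9 and below in 6. Replicate 1 lay above that mean in 67.5% of all members. Across the 23 pairs, which share their arrays and partly their probes, Pearson's r was 0.23 and Spearman's rho 0.26.

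Probes at the numbers next to members were picked by number and not by their own flags, except that members were left out. Of 1445 such probes that are not members, 791 were tested. Among these are 20 untabled probes with the members' flags, which passed the filter for testing through the prenatal arrays alone. In the limma fit 128 of the 791 (16.2%) were called higher before birth, where 10.3% of the 30893 tested ASMM10P probes outside the list were. The 30893 include all 537 untabled probes with the members' flags. Another 118 (14.9%) were called higher in the adult, against 16.3%. The share higher before birth was 14.1% for probes 2 numbers away and 10.3% for probes 10 numbers away. The difference between these shares and the background was not tested.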

How the data were processed

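Liver RNA was read on 6 single-colour arrays. Per the file headers and the submitters' processing notes, the authors deposited scanner output of Agilent Feature Extraction 11.0.1.1, whose processed signals are intensity values after background subtraction, along with detection marks. The authors' deposited value table holds log2 values with no normalisation named. Quantile-normalised log2 signals differed from it by at most 0.01 for 95.7% of values, its columns were not centred (medians 6.10, 6.02, 6.11, 5.94, 6.05 and 6.05), and it served to choose members and as an alternative.

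Here log2 of the processed signal minus each array's 75th percentile was used, leaving out spots marked as outliers. Probes well above background on at least 3 of 6 arrays were tested (32336) with limma 3.58.1 in R 4.3.3, two-sided, adjusted by Benjamini-Hochberg with a threshold of 0.05. The fit was checked on data with known changes. Accessions were matched to RefSeq symbols of GRCm38.p6 for the messenger RNA probes, such as Tfrc.

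Members, lists and tests were chosen with earlier results of these data known. Named are the 10 members with the largest bound, the 4 longest runs (ties by mean signal), the 3 with the largest and the 3 with the smallest SD, the 3 with the lowest mean, the 3 just outside, and Tfrc; numbers flanking a named run and ASMM10P016939 were added after their values were seen. Alternatives were scaling, background correction, filter, blocks, weights, flags and leaving out arrays. Of the marker genes listed for liver cell types, only Tfrc had a named probe.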

Additional observations from a re-analysis of the deposited data

How the results depend on the processing

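With the weaker flag for positive and significant signals, 102 probes met the rule and 0 of them stood in runs. Counting untabled ASMM10P probes too gave 1291, 97 of them in runs. Runs held 73 members when numbers could differ by 2, and 95 when neighbours were taken in the order of tabled probes. With any one array left out, 754 to 1140 probes met the rule and 43 to 74 stood in runs, the median prenatal SD was 0.25 to 0.61, the median bound 0.86 to 1.24 and the calls 459 to 619. In those fits 6.98% to 16.4% of all tested probes were called higher before birth. The highest counts of members came without adult replicate 3. Normexp with an offset of 50, which shrinks differences of dim probes by construction, gave a median bound of 0.43 (log2), a median SD of 0.31 and 184 members called higher before birth. The normexp fit called 8.50% of all tested probes higher before birth. Without a floor on the adult signal the median difference was 2.64. With the replicate block 447 members were called, and 6.01% of all tested probes. Deviations of arrays with equal numbers correlated at -0.525, -0.349 and -0.313. Arrays with unlike numbers were not compared, so these values cannot settle whether the numbers pair the samples. Quantile scaling, the other 2 scalings and the authors' table called 602 to 614 members, 598 to 611 of them among the 613. Their median bound was 1.07 to 1.08, and 11.8% to 12.9% of the probes tested in each were called higher before birth. Of 610 refits of named probes, 578 kept their side of the threshold, 22 passed it newly and 10 lost it, and 0 calls turned direction. With normexp the uncalled differences of ASMM10P030510 and ASMM10P041536 changed sign, to -0.032 and -0.060. Array weights gave 682 calls, where 22.0% of all tested probes were called higher before birth. The other fits gave 557 to 656, where 5.68% to 15.9% of the probes tested in each were called. The common limit and the values within a scan were chosen after the data were seen. Signal over background limits all values: no member was well above background on an adult array. The mean spot signal, named as input for normexp, was not used here, and the median spot signal stood in for it.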

Other observations

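The members' flags were also found outside the table. The table lists 16633 of the 58141 ASMM10P probes, and 754 of those listed are members. Every listed probe was flagged on 3 arrays or more and many others on fewer, so shares inside and outside the table are not directly comparable. Among ASMM10P probes that the table does not list, 537 were well above background on all 3 prenatal arrays and on no adult array. Their median bound was 2.31-fold, 83 (15.5%) reached at least 8-fold, and the largest bound was 3003-fold. Their median SD over the prenatal arrays was 0.53, and replicates 2 and 3 correlated at 0.953, against 0.670 and 0.704 with replicate 1. The 288 tabled probes detected in the adult alone had a median bound of 3.00-fold toward the adult. Of them 53 (18.4%) reached at least 8-fold, and the largest bound was 19696-fold.

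The table does not draw evenly on the probe numbers. In blocks of 5000 numbers it lists 23.8% to 38.6% of the ASMM10P probes, except from 5000 to 9999, where it lists 126 of 4998 (2.52%). In that block 2882 probes were tested, 8 were members and 88 untabled probes carried the same flags. In the other blocks members made up 3.09% to 5.25% of tabled probes. Why the table skips this block is not given in the sources used here.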
